A study of Caenorhabditis elegans with 4 samples.

Results

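Histone H3 trimethylated at lysine 4 (H3K4me3) was mapped in embryos of Caenorhabditis elegans, and the regions described here are its broad peaks, those at least 5000 bp wide. They were chosen by width alone from the replicate 1 peak list, in which 384 of 3811 peaks met the limit and 3427 were narrower. Both replicates came from N2, the wild-type strain, as mixed-stage embryos bleached from gravid adults grown in liquid culture, with no treatment and no mutant, and were immunoprecipitated with the same mouse monoclonal antibody from Wako. The series design describes them as biological replicates. The labels give a different version of the extraction protocol for each replicate, and an input library of its own for each, cut from the gel over a different size range. What belongs to a version or an input therefore cannot be told apart from the replicate. The embryos hold many cell types, and a peak that is wide in a few cells cannot be told apart from neighbouring peaks of different cells.

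H3K4me3 is laid down by COMPASS methyltransferase complexes (SET-2 is the main catalytic subunit in the worm embryo) and marks the start regions of transcribed genes, usually over a few nucleosomes. In mammalian cells, unusually wide H3K4me3 domains are known from genes that set cell identity. LEM-2 is a protein of the inner nuclear membrane, and the genome segments it contacts in the embryo, called LEM-2 subdomains, lie mainly on the arms of the autosomes and at the left end of the X chromosome, separated by gaps. On the autosomes, the arms are richer in repeats and recombine more often, whereas the centres hold more of the strongly expressed and conserved genes. X differs, and the study reports a high recombination rate in its centre and fewer repeats at its right end.

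The replicate 1 list covered 11.3 Mb, and broad peaks made up 24.5% of those bases with 10.1% of the peaks (exact Clopper-Pearson 95% interval 9.14 to 11.1%). All intervals of shares given here are of this kind and cover counting error only. Broad peaks ranged from 5004 to 19551 bp, with a median of 6482.5 bp and quartiles of 5478.5 and 7792.5 bp. The narrower peaks had a median of 2278 bp, and no peak of the list was narrower than 1213 bp. Widths formed a continuous range across the limit. The narrowest 3 broad peaks were 5004, 5005 and 5010 bp wide, and the widest 3 peaks just outside were 4989, 4981 and 4961 bp. Within 500 bp above the limit there were 101 peaks, and within 500 bp below it 111. The upper tail thinned to 47 peaks of at least 10 kb, of which 11 were on chromosome II, 10 each on chromosomes I and V, 8 on III, 7 on X and 1 on IV.

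Applied to replicate 2, the same rule gave 194 of 3487 peaks, or 5.56% (4.83 to 6.38%), ranging from 5009 to 14513 bp with a median of 6113 bp. The mean count over both lists was 289 ± 134 (SD, n = 2), so the number of broad peaks differed between the replicates by a larger factor than that of all peaks (3811 and 3487). The study's methods give more aligned reads for replicate 1 than for replicate 2. They call the 2 datasets highly concordant and use replicate 1 alone from there on. The lists hold no read counts, so the depth behind each peak is unknown, and the part of depth in the difference in number was not tested. Nor was its part in the widths, splits and scores compared between replicates below. Because the values that chose the peaks come from the same list, and regions of 1 library are not replicates, broad and narrower peaks are compared below as counts and shares, with replicate 2 as the check and no p-value.

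**Figure D1:**
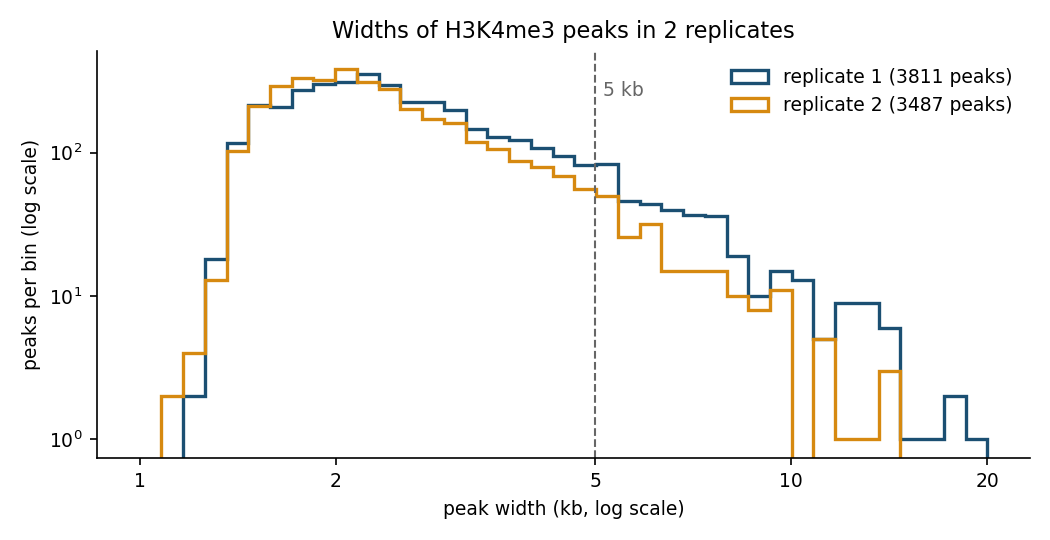
Number of H3K4me3 peaks (log scale) by peak width in kb (log scale) for replicate 1 and replicate 2, with the 5 kb limit dashed. Both distributions run through the limit without a break, and replicate 1 has the heavier upper tail, with 384 peaks past it against 194.

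Broad peaks were found on every chromosome. Chromosome I held 84, X 73, II 72, III 57, V 51 and IV 47, which is between 2.44 per Mb (chromosome V) and 5.57 per Mb (chromosome I). Narrower peaks also varied between chromosomes and ranged from 22.2 per Mb on V to 46.4 per Mb on III. Read as a share of the peaks on each chromosome, broad peaks were 11.5% on X (9.12 to 14.2%), 11.4% on II, 11.3% on I, 9.90% on V, 8.18% on III (6.25 to 10.5%) and 7.99% on IV (5.93 to 10.5%). The intervals of all 6 chromosomes overlapped. In replicate 2 the highest share was again on X, at 7.67% (5.62 to 10.2%), and the lowest again on IV, at 2.99% (1.72 to 4.81%). These 2 intervals did not overlap.

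Chromosome III had the most narrower peaks per Mb, whereas its broad peaks stood at 4.14 per Mb, below I (5.57) and II (4.71). Chromosome IV had both few broad peaks per Mb (2.69) and a low broad share, and held 1 peak of at least 10 kb.

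The share on X was 19.0% of broad peaks and 16.4% of narrower ones in replicate 1, and 22.7% and 16.1% in replicate 2, a difference of 4.60 ± 2.81 percentage points (SD, n = 2). This difference was not stable to the width limit, and at 4000 bp it took the opposite sign in replicate 1, at -0.58 percentage points. Median widths of broad peaks were similar between chromosomes, from 6073 bp on IV to 6840 bp on V, and X lay between them at 6568 bp.

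Chromosome centres and arms were taken from the study's supplementary list of chromosome parts. The centres held 220 of the 384 broad peaks, 57.3% (52.2 to 62.3%), against 52.2% of narrower peaks (50.5 to 53.9%). In replicate 2 the shares were 58.2% and 51.6%, and the difference over both replicates was 5.87 ± 1.06 percentage points (SD, n = 2). Broad peaks stood at 5.38 per Mb in the centres and 2.76 per Mb on the arms, and narrower peaks at 43.7 and 27.6 per Mb.

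The centre of X held 55 of these 220 peaks. Among autosomal peaks alone, 10.6% of centre peaks (9.08 to 12.2%) and 9.05% of arm peaks (7.69 to 10.6%) were broad in replicate 1, against 5.36% and 4.95% in replicate 2. Arm and centre intervals overlapped in both replicates. The centre had a larger broad share than the arms on 5 of 6 chromosomes in replicate 1, with V the exception, and on 4 of 6 in replicate 2, with I and III the exceptions. On chromosome II in replicate 1, 13.4% of centre peaks and 8.27% of arm peaks were broad. On X the corresponding shares were 12.3% and 9.52% in replicate 1, against 9.34% and 3.93% in replicate 2. The right arm of X held 2 broad peaks, the fewest of any arm, and 51 narrower ones.

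**Figure D2:**
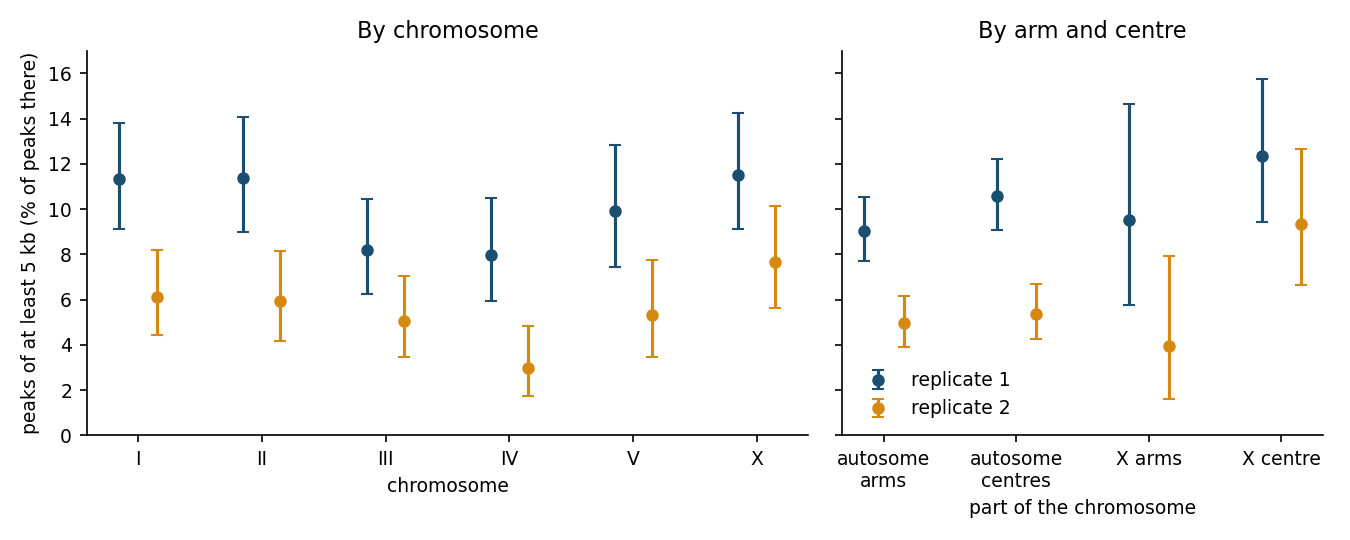
Percentage of peaks that are at least 5 kb wide, by chromosome (left) and by arm or centre (right), for replicate 1 and replicate 2. Bars are exact 95% intervals. X is highest and IV lowest in both replicates, and autosomal arms and centres overlap.

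Of the placements compared, that relative to the nuclear membrane gave the largest difference between broad and narrower peaks. The midpoint of a peak decided whether it counted towards a LEM-2 subdomain or a gap, with the gaps in the study's size classes: 162 small gaps (largest 9.70 kb), 147 medium gaps (10.0 to 98.5 kb), 35 large gaps (102 to 720 kb) and 10 extra large gaps (1394 to 7886 kb). Only 10 of the 2008 peaks in chromosome centres lay in subdomains. Of the 384 broad peaks, 71 had their midpoint in a subdomain, 16 in a small gap, 44 in a medium gap, 51 in a large gap and 202 in an extra large gap.

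The share in subdomains was 18.5% (14.7 to 22.7%) for broad peaks and 31.3% (29.8 to 32.9%) for narrower ones. Replicate 2 gave 19.6% (14.2 to 25.9%) and 30.3% (28.8 to 31.9%). Over both replicates the difference was -11.8 ± 1.49 percentage points (SD, n = 2), and the intervals of broad and narrower peaks did not overlap in either replicate. Wholly within a subdomain lay 62 broad peaks, 16.1%, against 29.6% of narrower peaks. A wider interval fits inside a region less easily, so this pair adds nothing to the midpoint shares.

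Seen from the regions, 6.20% of subdomain peaks (4.87 to 7.76%) were broad, against 11.7% of gap peaks (10.6 to 13.0%). In replicate 2 the values were 3.66% and 6.37%. Small gaps had the highest broad share in both replicates, at 18.2% (16 of 88 peaks, 10.8 to 27.8%) and 8.89% (8 of 90 peaks, 3.92 to 16.8%). The difference between broad and narrower peaks in their share in small gaps was 2.07 percentage points in replicate 1, and it was 0.768 at a limit of 6000 bp and 0.944 when counted in bases. The order of the other gap classes was not the same in both, and the intervals of the 4 gap classes overlapped in each replicate. Counted per length, broad peaks stood at 1.43 per Mb in subdomains, 5.39 in extra large, 6.92 in large, 8.66 in medium and 27.7 in small gaps. Narrower peaks had the same order of extremes, with 21.6 per Mb in subdomains and 125 per Mb in small gaps.

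The arms leave out most of the extra large gaps, although 6 of the 93 broad peaks in arm gaps in replicate 1, and 4 of 43 in replicate 2, still had their midpoint in one. On the arms, 43.3% of broad peaks (35.6 to 51.2%) and 64.9% of narrower peaks (62.6 to 67.2%) had their midpoint in a subdomain in replicate 1, and 46.9% and 62.4% in replicate 2. With all extra large gaps left out, the shares were 39.0% and 61.1% in replicate 1, and 43.2% and 58.5% in replicate 2. Of arm peaks, 6.26% in subdomains (71 of 1135) and 14.0% in gaps (93 of 666) were broad in replicate 1. In replicate 2 these were 3.68% (2.62 to 5.02%) and 6.72% (4.90 to 8.94%), with intervals that overlapped slightly. The broad share was lower in arm subdomains than in arm gaps on all 6 chromosomes in each replicate. Taken by chromosome, the 2 intervals were apart only on IV in replicate 1. They overlapped on the other chromosomes there and on every chromosome in replicate 2. In replicate 1 the pair of values was 9.25% and 15.9% on I, 6.50% and 15.1% on II, and 5.30% and 16.1% on III. It was 3.98% and 13.5% on IV, 6.21% and 13.7% on V, and 2.27% and 11.8% on X. On X 1 of the 73 broad peaks was in a subdomain in replicate 1. In replicate 2 none of 44 was, which allows a share of up to 8.04% (exact upper bound). Peaks of any width were also rare in X subdomains, with 48 of 635 in replicate 1 and 46 of 574 in replicate 2. Chromosome I held 26 of the 71 subdomain broad peaks, and it also held the most subdomain peaks of any width, 282 of 1145.

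The share in subdomains stepped down with width rather than at the limit. It was 33.5% for peaks of 1 to 2 kb, 32.1% at 2 to 3 kb, 28.6% at 3 to 4 kb, 23.6% at 4 to 5 kb, 24.2% at 5 to 6 kb, 15.6% at 6 to 8 kb, 14.0% at 8 to 10 kb and 12.8% (6 of 47, 4.83 to 25.7%) at 10 kb or more. In replicate 2 it went from 32.0% at 1 to 2 kb to 22.4% at 4 to 5 kb and 22.0% at 5 to 6 kb, with only 11 peaks at 10 kb or more. Peaks just inside the limit were thus like those just outside, with 24.8% of those within 500 bp above it and 27.0% of those within 500 bp below it in subdomains.

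**Figure D3:**
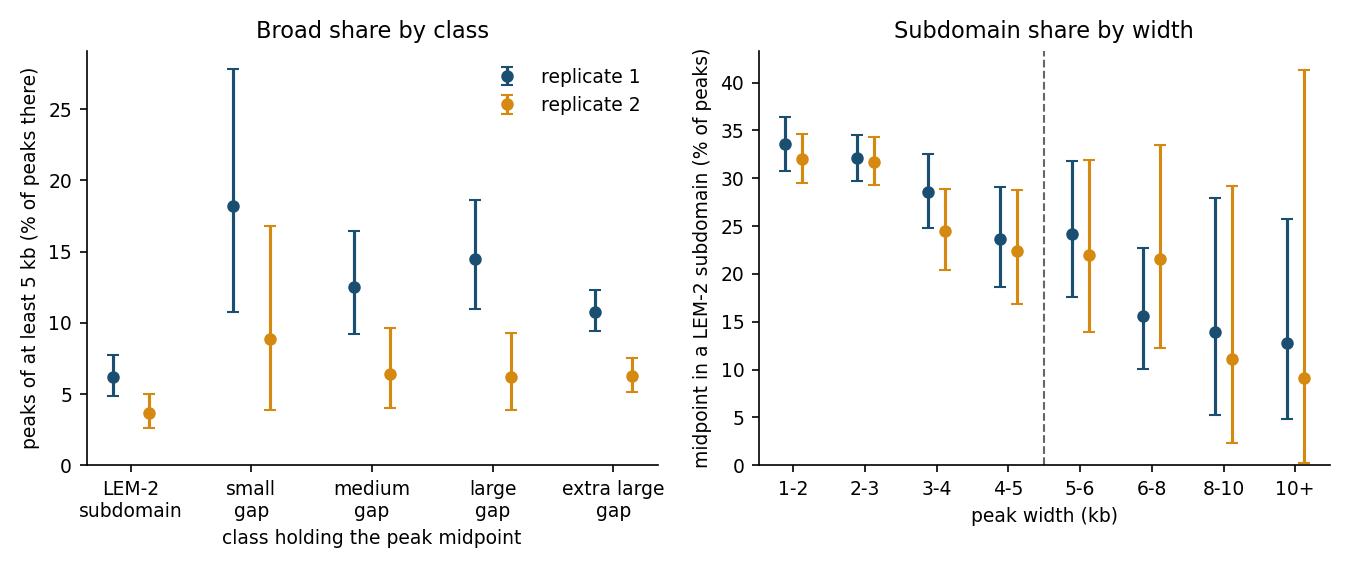
Left, percentage of peaks at least 5 kb wide among peaks with their midpoint in each LEM-2 class. Right, percentage of peaks with their midpoint in a LEM-2 subdomain by peak width in kb, with the 5 kb limit dashed. Bars are exact 95% intervals for replicate 1 and replicate 2, and the subdomain share goes from 33.5% in the narrowest to 12.8% in the widest replicate 1 peaks.

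Broad peaks of subdomains had a median width of 5954 bp, against 6626 bp in all gaps together. This was not particular to subdomains, since the median was 5725.5 bp in small and 5894 bp in large gaps. Medium and extra large gaps had wider medians, 6723 and 6752.5 bp. In replicate 2 the medians were 5934 bp in subdomains and 6163 bp in all gaps, with small (5852 bp) and large gaps (5892 bp) again below subdomains. The widest peak of the list was in a subdomain (described below with its replicate 2 counterpart). Of the 71 subdomain broad peaks, 11 had their midpoint within 5 kb of a subdomain edge (15.5%) and 9 crossed an edge (12.7%, 5.96 to 22.7%). For narrower subdomain peaks the crossing share was 5.59% (4.29 to 7.13%). A wider interval meets an edge more often wherever it lies, so this pair of values is a description only.

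A broad peak can be longer than a small gap. In replicate 1, broad peaks touched 23 of the 162 small gaps and covered 9 of them from end to end, and in replicate 2 they touched 13 and covered 5. No medium gap was covered whole, and large and extra large gaps are longer than any peak of the lists. The widest peak with its midpoint in a small gap was chrIII:13060188-13073506, 13319 bp wide over a gap of 7.88 kb, and it ran into the subdomains on both sides. Of the medium gaps, 43 of 147 were touched. The widest peak there, chrII:13816455-13831006, was 14552 bp wide over a gap of 18.3 kb and extended past its left end. Large gaps were touched in 28 of 35 cases, extra large gaps in all 10 and subdomains in 67 of 360. A longer region is touched more easily, so these counts are a description only. Broad peaks covered 1.06% of subdomain bases and 14.2% of small gap bases in replicate 1, and 0.504% and 7.31% in replicate 2.

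Broad peaks showed little tendency to lie beside each other. A next peak on the list was also broad, on at least 1 side, for 23.2% of broad peaks (89 of 384, 19.0 to 27.7%) and 18.7% of narrower ones (17.4 to 20.1%). In replicate 2 these shares were 12.4% and 10.7%, and the difference over both was 3.09 ± 1.95 percentage points (SD, n = 2), with overlapping intervals in each replicate. Most broad peaks, 295, stood alone between narrower ones. There were 34 runs of 2 consecutive broad peaks and 7 runs of 3, the longest length seen in either replicate.

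Distances showed the same. The median distance from midpoint to the nearest other broad midpoint was 86.4 kb for broad peaks and 81.9 kb for narrower ones, and another broad peak was within 20 kb for 14.3% and 14.2% of them. The edge-to-edge gap to the nearest peak of any width had a median of 5.19 kb for broad and 5.60 kb for narrower peaks, and was under 1 kb for 13.0% and 12.6%. Among the 48 pairs of neighbouring broad peaks the median gap was 13.5 kb, and 3 were closer than 1 kb.

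When the genome was cut into 1005 windows of 100 kb, 315 windows (31.3%) held a broad midpoint in replicate 1, of which 253 held 1, 55 held 2 and 7 held 3. The window with most broad bases was chrI:2700001-2800000, with 31.9 kb in 3 broad peaks. These were also 1 of the 7 runs of 3 and lay at chrI:2702915-2712098, chrI:2725469-2730507 and chrI:2736921-2754630, with widths of 9184, 5039 and 17710 bp. They lay on the left arm, the middle one with its midpoint in a small gap and the outer ones in subdomains. In none of the 3 did a replicate 2 peak reach the same width, and the widest overlapping ones were 3647, 4008 and 7563 bp. The other runs of 3 were on II (3 runs), X (2 runs) and IV (1 run). In replicate 2 the window with most broad bases was a different one, on chromosome V, with 20.2 kb in 2 peaks.

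Replicate 2 was not used to choose the broad peaks and shows how far their position and their width were each repeated. A replicate 2 peak overlapped 379 of the 384 broad peaks, 98.7% (97.0 to 99.6%), against 84.8% of the narrower peaks (83.5 to 86.0%). A wider peak meets a peak of the other list more easily under a minimum of 1 bp. With a reciprocal overlap of 50% the difference went from 13.9 to 1.47 percentage points, and with replicate 2 as the list described it was 2.82. The reciprocal rule is also harder to meet for a peak that is split or narrower in replicate 2, so it does not isolate width. By width, the share was 69.6% at 1 to 2 kb and 97.4% at 4 to 5 kb, with median scores of 338 and 3100. The parts of width and score in the difference were not tested. In the reverse direction, replicate 1 overlapped all 194 broad peaks of replicate 2 and 97.2% of its narrower peaks.

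The width was repeated less often, and the part of the unequal aligned reads in this was not tested. A replicate 2 peak that was itself at least 5 kb overlapped 187 of the 384, 48.7% (43.6 to 53.8%). Within 500 bp above the limit 19 of 101 were broad in both, whereas 43 of 47 peaks of at least 10 kb were. A peak of that width can be much narrower in replicate 2 and still pass 5 kb, and 11 of the 47 met a replicate 2 peak of at least 10 kb. From replicate 2, 190 of 194 broad peaks met a broad peak of replicate 1. The other 4 met replicate 1 peaks with a median width of 4692.5 bp. The broad set of replicate 2 was therefore nearly contained in that of replicate 1.

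Of the 187 peaks broad in both replicates, 18.7% were in subdomains and 59.4% in centres, against 18.5% and 57.3% of all 384. Their makeup by chromosome shifted more, with 23.0% on X against 19.0% of all 384, and 15 of 187 on IV against 47 of 384. By chromosome, 58.9% of the broad peaks of X (46.8 to 70.3%), 54.4% of III, 49.0% of V, 47.6% of I, 45.8% of II and 31.9% of IV (19.1 to 47.1%) were broad in both. All of these intervals overlapped, those of X and IV only slightly.

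For 288 broad peaks the overlap was 1-to-1, and there the replicate 2 peak had a median of 0.864 of the replicate 1 width (quartiles 0.696 and 0.944), with 12 pairs wider in replicate 2. For the 2876 narrower pairs the ratio was 0.930 (0.865 and 0.976). Choosing peaks as wide in 1 list by itself lowers this ratio. Chosen by replicate 2 instead, the 163 pairs had a median replicate 1 to replicate 2 ratio of 1.08, and 90.8% were wider in replicate 1, so replicate 1 peaks were the wider ones whichever list chose. Neither side was favoured across the broad pairs. The left end of the replicate 2 peak was a median of 269 bp and the right end 240.5 bp inside the replicate 1 peak. Both ends summed had a median of 891 bp, so the medians of single ends do not show how the shift was shared within a pair. For narrower pairs the values were 73 and 68 bp for the ends and 164 bp summed.

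Broad peaks of replicate 1 were split by replicate 2 far more often than narrower ones. Of the 379 broad peaks met by replicate 2, 290 met 1 peak, 82 met 2, 6 met 3 and 1 met 4, so that 89, or 23.5% (19.3 to 28.1%), were split. Of the narrower peaks 20 of 2905 were split, 0.688% (0.421 to 1.06%). The share went up with width, from 5.30% at 4 to 5 kb to 16.0% at 5 to 6 kb, 22.9% at 6 to 8 kb, 28.6% at 8 to 10 kb and 44.7% (30.2 to 59.9%) at 10 kb or more. A wider peak offers more bases for a further peak to overlap, so this order is a description only. Within 500 bp above the limit 12 of 101 were split, and within 500 bp below it 7 of 111.

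Splitting went almost wholly in 1 direction. Of the 194 broad peaks of replicate 2, 3 were split in replicate 1, 1.55% (0.320 to 4.45%), and in all 7 replicate 2 peaks of any width joined 2 or more replicate 1 peaks. The difference in split share between broad and narrower peaks was 22.8 percentage points with replicate 1 as the list described and 1.42 with replicate 2.

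**Figure D4:**
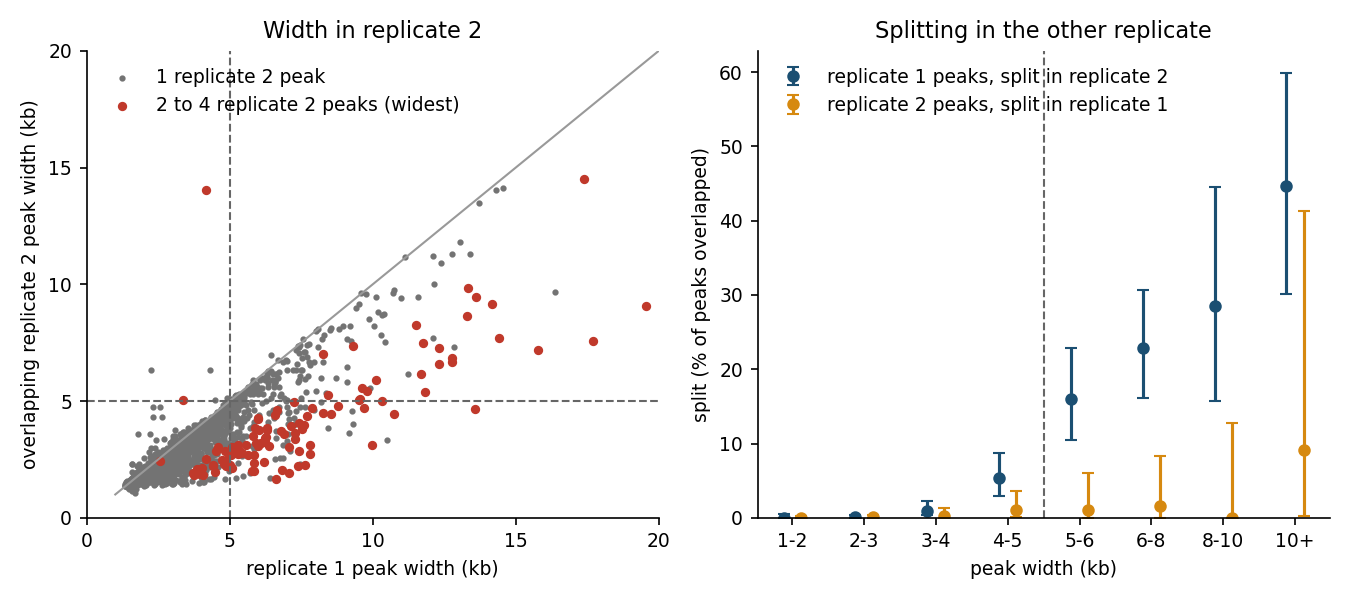
Left, width in kb of the replicate 2 peak overlapping each replicate 1 peak, or the widest where there were 2 to 4 (red), with equal widths as a grey line and 5 kb dashed. Right, percentage of overlapped peaks that met 2 or more peaks of the other replicate, by width in kb, with exact 95% intervals. Points lie mostly below the line, and splitting goes from 16.0% at 5 to 6 kb to 44.7% at 10 kb or more for replicate 1 peaks.

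The gaps between the pieces were short. The 89 split peaks held 186 pieces and 97 gaps with a median of 356 bp and a range of 3 to 2683 bp, of which 82 were under 1 kb. They took up a median of 4.88% of the replicate 1 peak. Replicate 2 covered a median of 87.3% of a split and 86.4% of an unsplit broad peak, and in 78 of the 89 the pieces together spanned at least 5 kb. Only 25 of them kept a piece of at least 5 kb. The widest piece had a median of 3799 bp and the narrowest 2168 bp, which is close to the median of 2196 bp of all replicate 2 peaks.

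The pieces were unequal in score, which is minus 10 times the log10 of the p-value that the peak caller gave. The best piece of a split peak had a median score of 1169 and the weakest 212, and in 66 of 89 the widest piece was also the best. The scores of strong peaks pile up at 3100, which 242 broad peaks of replicate 1 had exactly and 6 passed, with 3233 the highest score of the list. Of split broad peaks 52.8% scored 3100 or more, and of unsplit ones 69.3%. Put the other way, 19.0% of broad peaks at 3100 or more (14.3 to 24.4%) and 32.1% of those below (24.2 to 40.8%) were split. Of split broad peaks 18.0% were in subdomains and 52.8% in centres, and of unsplit ones 18.6% and 58.3%. By chromosome, the split share was lowest on X, at 12.5% (9 of 72, 5.88 to 22.4%), and 26.1% on the autosomes together (80 of 307, 21.2 to 31.3%), and these 2 intervals overlapped slightly.

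The widest peaks show these patterns individually, and their coordinates are printed as ce4, the assembly of the study's region lists. The widest, chrI:2826607-2846157 on the left arm, was 19551 bp and lay within a subdomain of 487 kb, 56.9 kb from its nearer edge at the midpoint. Replicate 2 had 4 peaks beneath it, the most for any broad peak, of 1443, 9080, 3057 and 4481 bp, with gaps of 591, 915 and 61 bp. Their scores were 58.8, 3061, 145 and 371, so 1 of the 4 scored far above the others, and together they covered 92.0% of the peak.

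The next, chrI:2736921-2754630, was 17710 bp and lay in another subdomain of the same arm. It met 3 replicate 2 peaks of 7563, 3163 and 3004 bp with scores of 2800, 142 and 290, which together covered 77.5% of it. The stretch to the right of the last of them was not covered. The pattern was again of a strong piece beside weak ones. A peak with 3 pieces in an extra large gap was chrII:11533389-11549150 in the centre of chromosome II, 15762 bp wide. Its pieces of 7188, 2346 and 3999 bp scored 3100, 1314 and 2864, so all of them were strong there, and its gaps were 560 and 888 bp.

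Chromosome II held 6 of the 10 widest peaks, more than any other, and 5 of these 6 lay in the extra large gap that forms its centre. The widest of them, chrII:6822738-6840115, was 17378 bp and met pieces of 14513 and 2208 bp, the former being the widest peak of replicate 2. It was also the only peak of the 10 below 3100 in replicate 1, at 1590. The nearest peak on the list was 0.125 kb away. Splits into strong pieces were seen at chrII:9052477-9066876 (14400 bp, pieces of 5418 and 7683 bp, both scored 3100) and at chrII:6934116-6948277 (14162 bp, pieces of 4047 and 9150 bp, scored 754 and 2889).

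Among the 10 widest, 3 were matched nearly base for base by 1 replicate 2 peak. At chrII:13816455-13831006 the widths were 14552 and 14114 bp, at chrII:10545046-10559358 they were 14313 and 14038 bp, and at chrIII:12603793-12617507 they were 13715 and 13472 bp. The other unsplit peak, chrV:11945442-11961803, was 16362 bp in replicate 1 but 9659 bp in replicate 2, which covered 59.0% of it with uncovered stretches at both ends. It was the widest on chromosome V.

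**Figure D5:**
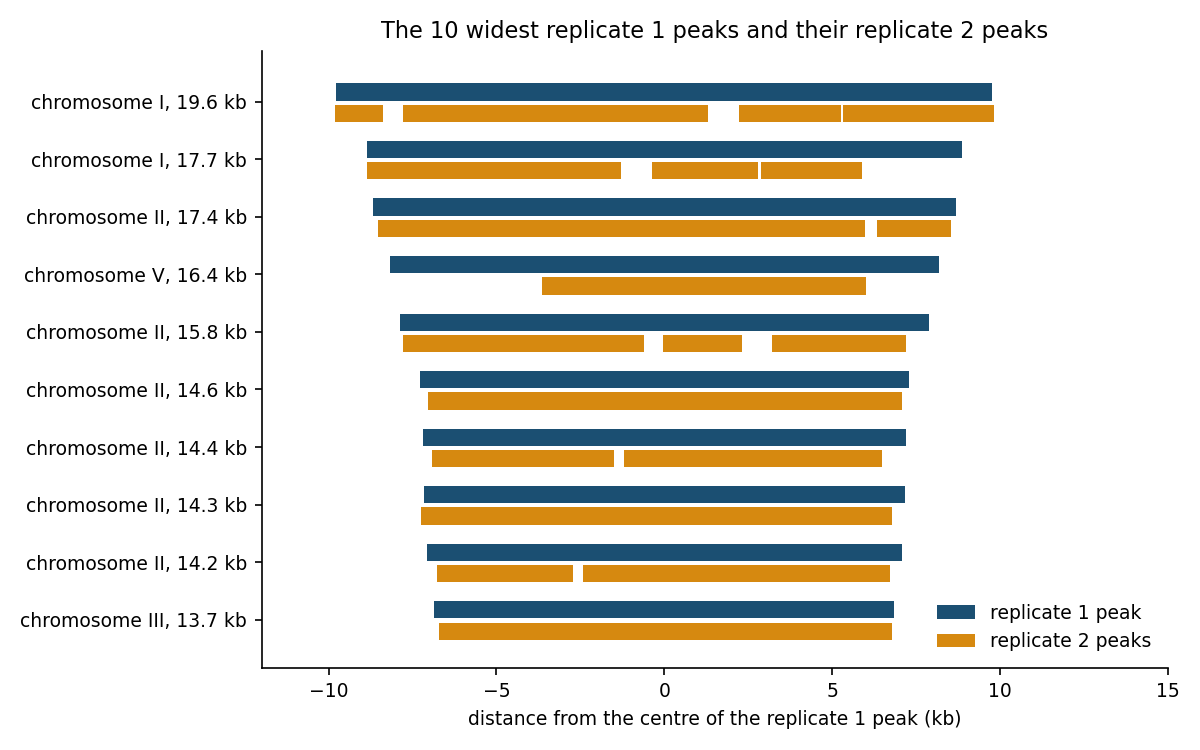
The 10 widest replicate 1 peaks (blue) and the replicate 2 peaks overlapping them (orange), drawn to scale as distance in kb from the centre of the replicate 1 peak. The top peak of 19.6 kb meets 4 replicate 2 peaks, 4 of the 10 peaks meet 1 each, and the gaps between pieces are short beside the pieces.

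The remaining chromosomes had narrower maxima. The widest on X was chrX:7455511-7467599, 12089 bp with a score of 1541, which met 1 replicate 2 peak of 7683 bp. The widest on IV was chrIV:16487422-16498927, 11506 bp in a medium gap of the right arm, with pieces of 8243 and 2128 bp scored 3100 and 71.0. The widest in a large gap, chrV:14496114-14509688, was 13575 bp and met 3 nearly equal pieces of 3934, 4654 and 4280 bp, none of them broad, with gaps of only 157 and 151 bp and a replicate 1 score of 951.

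Scores of broad peaks were high but not uniformly so. A score of 3100 or more was reached by 248 of 384, 64.6% (59.6 to 69.4%), and by 29.9% of narrower peaks. This share was 2.63% at 1 to 2 kb, 37.7% at 2 to 3 kb, 51.7% at 3 to 4 kb and 58.3% at 4 to 5 kb. It then stayed between 58.9% and 69.9% in the 4 wider classes. In replicate 2, 38.1% of its broad and 5.50% of its narrower peaks reached 3100. Since score and width come from the same list, this is a description. By chromosome the share of broad peaks at 3100 or more in replicate 1 was highest on I, at 77.4% (67.0 to 85.8%), and lowest on V and X, at 52.9% and 54.8%. In replicate 2 V (32.0%) and X (22.7%) were again lowest, but I (40.5%) was below IV (50.0%), III (46.9%) and II (45.7%).

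A small group of broad peaks had low scores, with 18 of 384 (4.69%) under 500, against 31.1% of narrower peaks. Their median width was 6781 bp and the widest was 10416 bp. All 18 were met by a replicate 2 peak and 5 were split. Broad in both replicates were 4 (48.7% of all 384), in subdomains 4 (18.5% of all 384) and in extra large gaps 9 (52.6% of all 384). The lowest, chrII:13194508-13200696 in a subdomain, scored 62.1 over 6189 bp and met 2 replicate 2 peaks, the best of which scored 198.

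The 5 broad peaks with no replicate 2 peak were chrX:10500301-10508396 (8096 bp, score 1331), chrIII:8287119-8294476 (7358 bp, 645), chrIV:6124219-6130135 (5917 bp, 600), chrIV:7094266-7099894 (5629 bp, 829) and chrII:9019239-9024619 (5381 bp, 532). All 5 scored well below 3100, and 4 of the 5 lay in extra large gaps, with the first of chromosome IV in a subdomain. Of all 384 broad peaks, 64.6% scored 3100 or more and 52.6% lay in extra large gaps. The peak on chromosome II was the first member of a run of 3 broad peaks, beside the 14400 bp peak named above.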

How the data were processed

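ChIP DNA of 2 H3K4me3 replicates was sequenced. The labels name BWA, with no version, as a tool, and the study's methods state that reads were placed on ce4 by MAQ for coverage profiles. The authors deposited a peak list per replicate, called at a p-value threshold of 1e-05. Its columns are the start and end in bp and a score, which per the file headers is minus 10 times the log10 of the p-value, and many strong peaks share the score 3100, which a few pass. The caller's version and the genome build of the lists are not given in the sources used here. Coordinates are printed as ce4 because the study's region lists are in ce4, and the placements assume that build. No peak ended past its chromosome lengths, which cannot tell it from a build of similar lengths. The input libraries were not analysed here, and no sequence or gene was assigned. The lists hold no read counts. The study's methods give the aligned reads of each replicate, more for replicate 1, and no interval here rests on them.

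Width was end minus start, and starts are printed counted from 1. LEM-2 subdomains, gaps and chromosome parts came from the study's supplementary lists, and peaks were placed by midpoint. An overlap of at least 1 bp counted as shared, and a peak was split if 2 or more peaks of the other replicate overlapped it. Peaks named are the 10 widest, the widest per chromosome and per LEM-2 class, those nearest the limit, those with most or no replicate 2 peaks, and the densest run and window. The lowest-scoring broad peak was added after its value was seen. The broad peaks and the comparisons were chosen with earlier results of these data known. The counting was tested on simulated peak lists. Alternatives were widths of 4000 and 6000 bp, merging of peaks closer than 200 bp, replicate 2 as the list described, autosomes, shares of bases, extra large gaps left out, only peaks met by replicate 2, and stricter overlaps (50% reciprocal or 100 bp). Intervals were computed with scipy 1.17.1, tables with pandas 2.3.3 and numpy 2.4.6 under Python 3.11.15, and figures with matplotlib 3.10.9.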

Additional observations from a re-analysis of the deposited data

How the results depend on the processing

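Of 57 alternative values for 9 results, 36 stayed within the spread of the replicates, or within 1.5 times the main count, 20 moved further with the same sign, and 1 changed sign. The spread is the SD over the 2 replicates, so values described from replicate 2 fall outside it by construction, except for the count. Where the replicates differ widely, as for splitting (SD 15.1) and overlap (SD 7.85), most alternatives stay inside. The tally is therefore no measure of robustness. Differences are broad minus narrower, in percentage points. At 4000 bp there were 655 broad peaks, the X difference reversed to -0.58, and the difference in having a broad neighbour was 2.20. At 6000 bp there were 231 broad peaks, and the differences were 10.7 for centres, -16.3 for subdomains and 0.768 for small gaps. Described from replicate 2 alone, broad peaks numbered 194 and the differences were 6.59 for X, 6.62 for centres, -10.7 for subdomains, 1.63 for small gaps, 1.71 for a broad neighbour, 2.82 for overlap and 1.42 for splitting, with a width ratio of 1.08. Without extra large gaps the differences were -22.1 for subdomains and 4.69 for small gaps. For small gaps the difference was 2.91 on autosomes and 0.944 counted in bases. With a reciprocal overlap of 50% the overlap difference was 1.47. The cause of these shifts was not tested. No paired analysis was possible because the peak lists form 1 group and no input list was analysed here. With 2 replicates and no read counts, the limits are the SD over 2 values and intervals that cover counting error only.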
